A study of Mus musculus with 6 samples.

Results

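In ATAC-seq of splenic immature B cells, 3677 of 70174 accessible regions (5.24%) were called in 1 untreated library and 2 toxin-treated libraries and in none of the other 3. They were chosen on the peak calls themselves: the 6 deposited peak lists were merged into union regions, and a region was kept where at least 1 bp of a peak from untreated replicate 3, DTx replicate 2 and DTx replicate 3 lay in it and no peak from untreated replicate 1, untreated replicate 2 or DTx replicate 1 did. The set therefore crosses the treatment groups, and it runs along another difference between the libraries, the length of their lists. The 3 lists that hold these regions, hereafter the holding lists and the member regions, were the longest of the 6, with 56503, 56266 and 60811 peaks, against 36760, 42504 and 44661 in the other 3. How many member regions there are, and the fact that the holding lists called them, follow from the rule and are given as description with no test.

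All 6 libraries came from B220+CD93+ immature B cells of the spleen of Tcrd-GDL mice, a reporter strain in which γδ T cells express the receptor for diphtheria toxin (DTx), so that the toxin kills them. The control group was of the same strain and untreated (3 libraries). The DTx group (3 libraries) received 2 intraperitoneal injections of 15 ng of toxin per gram of body weight, 48 h apart, and cells were taken on day 8 after the first. No toxin-treated group lacking the receptor was analysed here, so depletion of γδ T cells and other effects of the toxin cannot be told apart, and the labels give neither age nor the number of mice behind a library. The replicates are not said to be separate mice, and the p-values printed here measure only the spread between these libraries, which may be technical.

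Untreated replicate 3 and DTx replicate 1 were in the layout of the peak caller's narrow mode and the other 4 lists in that of its broad mode, so the holding lists mix both modes and so do the other 3. Depth is unknown, since no source used here gives read totals. Of the B-cell markers, Cd79a, Cd79b, Ms4a1, Pax5, Ebf1, Cd93 and Cd24a had a peak within 1 kb of a gene end in 6 of 6 libraries. Of the markers of other cells, Cd3d and Klf1 had one in 6 libraries, Lck and Csf1r in 4, Sox13 in 2 and Cd3g in 1, while Cd3e, Trdc, Ncr1, Klrb1c, Lyz2 and Gata1 had none. Whether other cells in the sort bear on the member regions was not tested.

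Tn5 transposase cuts DNA where nucleosomes are displaced, and a peak caller turns pile-ups of such cuts into regions. In most cells the promoters of active genes are open and give strong, wide peaks, while enhancers, which lie within introns and between genes and are bound by lineage factors such as PAX5, EBF1 and IKAROS in B cells, differ more between cell types and states and often give weaker ones. In a bulk library a region open in fewer of the cells and a region cut less often in each cell cannot be told apart.

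Promoter windows show what such a region looks like at base level, and 5 are printed from RefSeq (GRCm38.p6), each running from 250 bases before a start site to 50 after it, 5′ to 3′ on the gene's strand. Capitals mark the bases that lay under a peak in all 3 holding lists. Tnfrsf12a (receptor of the cytokine TWEAK; chr17:23677400-23677699, minus strand), Dnal1 (a light chain of axonemal dynein; chr12:84114078-84114377, plus strand) and Tnip1 (which binds A20 and restrains NF-κB signalling; chr11:54962891-54963190, minus strand) are shown because their member regions are among the strongest over a start site of a gene with no gene-end peak in the other 3 libraries. Vpreb3 (a protein that associates with the B-cell receptor chains during assembly; chr10:75948050-75948349, plus strand) and Oas1a (an interferon-induced oligoadenylate synthetase; chr5:120907476-120907775, minus strand) are shown as genes of the lists described with the results.
Tnfrsf12a: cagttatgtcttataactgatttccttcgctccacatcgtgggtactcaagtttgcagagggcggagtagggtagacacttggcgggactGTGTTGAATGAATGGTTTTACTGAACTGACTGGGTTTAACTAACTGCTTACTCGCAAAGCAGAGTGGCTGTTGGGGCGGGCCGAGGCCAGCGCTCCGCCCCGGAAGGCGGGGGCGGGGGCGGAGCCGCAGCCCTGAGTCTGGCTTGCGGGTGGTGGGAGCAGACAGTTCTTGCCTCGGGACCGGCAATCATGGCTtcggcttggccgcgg
Dnal1: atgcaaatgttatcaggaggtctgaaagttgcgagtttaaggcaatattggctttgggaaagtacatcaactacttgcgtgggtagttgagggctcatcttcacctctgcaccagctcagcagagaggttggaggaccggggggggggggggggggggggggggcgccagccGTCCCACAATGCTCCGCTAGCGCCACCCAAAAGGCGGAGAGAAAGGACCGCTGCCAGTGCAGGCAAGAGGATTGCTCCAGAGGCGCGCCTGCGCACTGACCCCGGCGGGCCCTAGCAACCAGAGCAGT
Tnip1: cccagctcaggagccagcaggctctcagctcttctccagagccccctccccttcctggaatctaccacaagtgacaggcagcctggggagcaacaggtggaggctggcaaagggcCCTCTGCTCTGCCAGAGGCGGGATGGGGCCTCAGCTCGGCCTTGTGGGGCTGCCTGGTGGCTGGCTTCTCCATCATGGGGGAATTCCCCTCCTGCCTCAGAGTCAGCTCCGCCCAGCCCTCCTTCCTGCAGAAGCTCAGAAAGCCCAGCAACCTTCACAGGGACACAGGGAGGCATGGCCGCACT
Vpreb3: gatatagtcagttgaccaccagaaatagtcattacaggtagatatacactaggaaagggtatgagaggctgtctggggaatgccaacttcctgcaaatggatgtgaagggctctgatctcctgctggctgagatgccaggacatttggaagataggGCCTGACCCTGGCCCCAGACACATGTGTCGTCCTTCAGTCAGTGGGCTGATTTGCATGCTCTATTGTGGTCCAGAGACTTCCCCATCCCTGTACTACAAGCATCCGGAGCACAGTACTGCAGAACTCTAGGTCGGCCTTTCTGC
Oas1a: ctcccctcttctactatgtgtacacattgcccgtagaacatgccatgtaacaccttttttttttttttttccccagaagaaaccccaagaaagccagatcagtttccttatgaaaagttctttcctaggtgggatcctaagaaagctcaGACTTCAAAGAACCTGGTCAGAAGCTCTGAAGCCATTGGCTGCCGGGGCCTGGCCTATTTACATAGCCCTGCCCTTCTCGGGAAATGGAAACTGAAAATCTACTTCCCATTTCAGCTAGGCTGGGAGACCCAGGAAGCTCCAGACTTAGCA

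The member regions formed the most frequent pattern among those held by exactly 3 libraries. All other sets of 3 together held 2758 regions, the mirror pattern (the 3 shortest lists and none of the longest) held 9, and of the patterns that follow the treatment, the one with every DTx library and no untreated library held 495 regions and its reverse 17. Among broad-mode lists alone, 8276 regions were called in both DTx libraries and neither untreated library, of which member regions made up 44.4%, and 49 were called the reverse way. Among the narrow-mode pair the direction turned: 14553 regions were in untreated replicate 3 and not in DTx replicate 1, of which 25.3% were member regions, and 2800 were in DTx replicate 1 only. By the rule itself, every member region counted toward DTx within broad mode and toward untreated within narrow mode.

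Just outside the rule lay 5219 regions held by the 3 longest lists and exactly 1 other, and 5145 held by 2 of the 3 longest and no other. The added list was untreated replicate 2 for 2714 regions, DTx replicate 1 for 1867 and untreated replicate 1, the shortest list, for 638. Of the regions in 2 of the 3 longest lists, 2237 were missing from untreated replicate 3, 2031 from DTx replicate 2 and 877 from DTx replicate 3. Dropping a list from the rule raised the count to between 4330 and 6442. It was 6442 without untreated replicate 2, 5913 without untreated replicate 3, 5728 without DTx replicate 2 and 5543 without DTx replicate 1, each over 1.5 times the count from 6 lists.

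**Figure D1:**
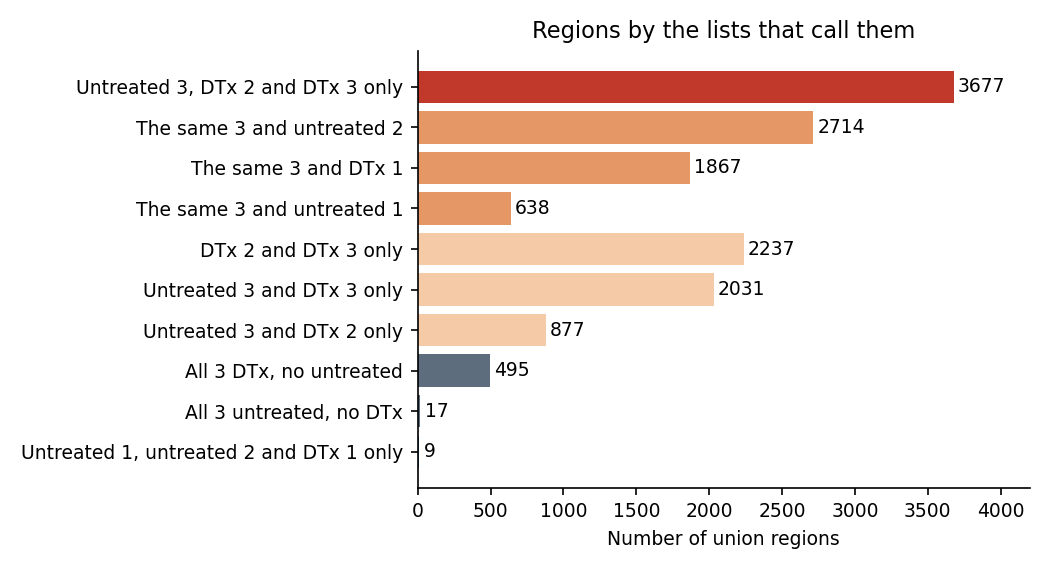
Number of union regions (horizontal axis) for each pattern of lists that call them, including the member regions, the patterns just outside the rule and those that follow the treatment. The 3677 regions only in the 3 longest lists stand against 495 in DTx only, 17 in untreated only and 9 only in the 3 shortest lists.

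Within most member regions the peaks of the holding lists overlapped in part. Regions were built by merging overlapping peaks, so some overlap follows from the merging. In 3635 of 3677 each list had a single peak, and in 3654 (99.4%) the 3 peaks shared bases, with a median of 177 bp in common, 50% of the region. The median width of a region was 386 bp (quartiles 301 and 494), against 890 bp for regions in all 6 lists, 414 bp for those in another set of 3 and 221 bp for those in 1 list. A merged region can only widen with each list added, so widths of sets held by different numbers of lists are not like for like. Single peaks were shorter, with medians of 299 bp in untreated replicate 3, 249 bp in DTx replicate 2 and 269 bp in DTx replicate 3. For regions in all 6 lists the bases under peaks had medians of 795, 697 and 736 bp in the same order. Only 115 member regions (3.13%) were over 1 kb, against 39.2% of the regions in all 6 lists, and the whole set covered 1613 kb.

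The narrowest members, all of 173 bp, lay 1.66 kb from an end of Ppif (the mitochondrial cyclophilin), in Osbpl11 (a lipid-transfer protein) and in Dusp4 (a phosphatase of MAP kinases). The widest lay at ends of Hnrnpa3, an RNA-binding protein gene (2559 bp), and Cd69, an early activation receptor of lymphocytes (2445 bp), and 14.7 kb from Tvp23b (2410 bp). In the Cd69 region the peak was 366 bp in untreated replicate 3, 1305 bp in DTx replicate 2 and 2445 bp in DTx replicate 3. In the Tvp23b region it was 1420 bp in untreated replicate 3, 593 bp in DTx replicate 2 and 1670 bp in DTx replicate 3. The narrow-mode list, untreated replicate 3, thus had the shortest peak in the first and not in the second.

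Most member regions lay away from gene ends, in gene bodies or between genes. Within 1 kb of either end of a protein-coding gene lay 373 of them (10.1%, Wilson 95% interval 9.21 to 11.2, counting error only), 1870 (50.9%) lay further inside genes and 1434 (39.0%) between genes. Over all regions the gene-end share was 19.1% and the gene-body share 43.7%. The gene-end share was 32.6% for regions in all 6 lists and between 6.63% and 10.3% for each class of regions held by 1 to 5 lists: 7.22% in another set of 3, 10.1% in 4 lists and 10.3% in 5. The regions that followed the DTx labels had 3.03% (15 of 495). The low share of member regions at gene ends is therefore one they had in common with each class held by 1 to 5 lists. The gene table gives no strand, so either end counts here, and where start sites were known, 145 of 369 gene-end members (39.3%) lay within 1 kb of a protein-coding start, against 76.0% of 9846 such regions in all 6 lists.

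**Figure D2:**
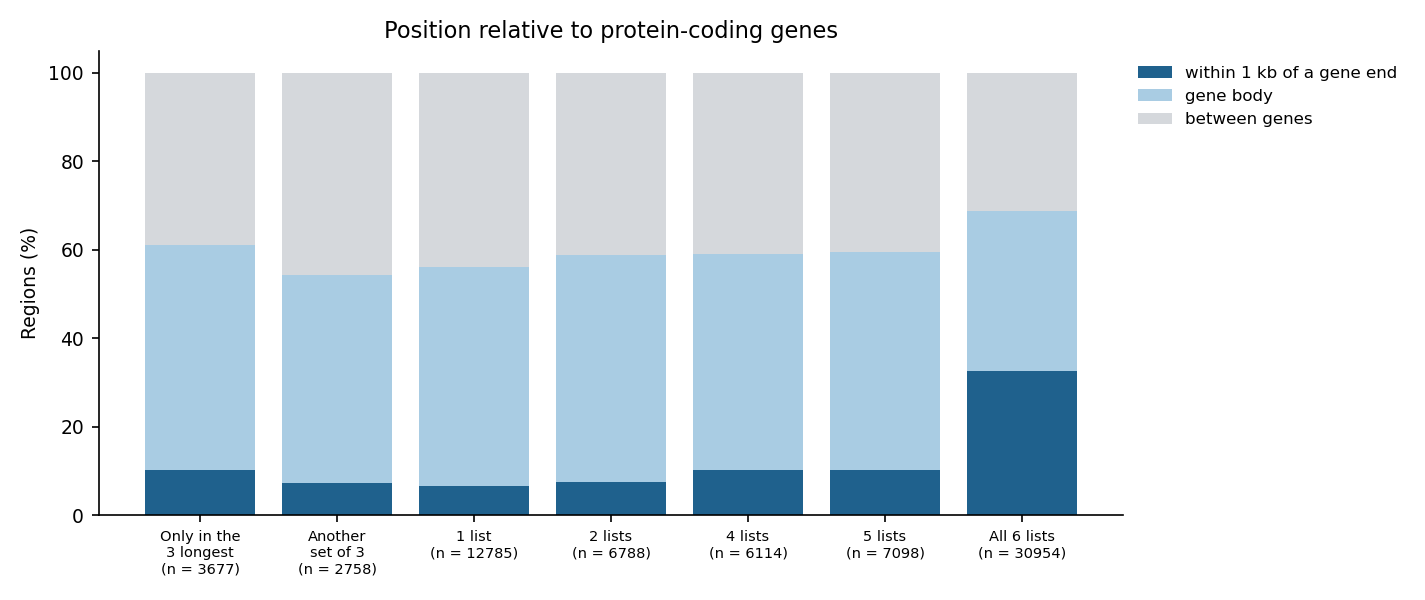
Percentage of regions (vertical axis) within 1 kb of a protein-coding gene end, in gene bodies and between genes, by the number of lists that call a region, with n under each bar. The gene-end share is 10.1% for regions only in the 3 longest lists and 32.6% for regions in all 6.

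The median distance of a member region to a gene end was 12.3 kb, the same as over all regions (12.3 kb), against 7.59 kb for regions in all 6 lists and 18.9 kb for another set of 3. More than 100 kb away lay 288 members (7.83%), against 10.3% of all regions and 7.91% of those in all 6 lists. Of members inside genes of known strand, 26.4% fell in the first part of the gene when its length was cut into 4 equal parts, then 25.5%, 23.4% and 24.7% (n = 1489). Regions in all 6 lists leaned toward the start, with 27.9%, 28.6%, 23.3% and 20.1% (n = 8816). Long non-coding RNA genes overlapped 11.6% of members against 12.3% of all regions, transfer RNA genes 4 members (0.109%) against 0.212%, and small nuclear RNA genes none. By chromosome the member share of regions ran from 3.71% on X and 3.87% on 18 to 6.57% on 11 and 6.64% on 15, with 0 of 9 regions on Y.

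By the authors' own values the member regions were weak peaks in each list that held them. The rule kept only regions with no peak in the shorter lists, so low ranks partly follow from the selection and are given as description. Strength is given as the percentile of a peak's −log10 q, the caller's significance, within its own list, where 50 is the median peak. Medians were 22.7 in untreated replicate 3, 24.5 in DTx replicate 2 and 29.1 in DTx replicate 3, against 72.3, 71.7 and 73.8 for regions in all 6 lists. Members above the median of their list numbered 243 (6.61%), 498 (13.5%) and 654 (17.8%). Their median fold enrichment over the caller's background was 5.35, 3.65 and 3.68 in the same order, against list medians of 8.66, 4.70 and 4.51. Weak is not the same as weakest: 17.9%, 18.4% and 14.4% of members were below the 10th percentile of their list, against 70.8%, 65.4% and 44.7% of the regions held by that list alone.

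The strength of member regions lay between the values just outside the rule. These sets were defined by how many lists called a region, so that order partly follows from the selection too. Regions with 1 further call had medians of 29.3, 29.4 and 33.5 in the 3 holding lists, and regions with 1 call fewer had 12.7, 16.1 and 20.4. The further call was itself weak, at a median percentile of 14.0 in untreated replicate 1, 19.6 in untreated replicate 2 and 20.5 in DTx replicate 1. Ranks of single members followed each other across the holding lists, with Spearman's rank correlations over 3677 regions of 0.733 for untreated replicate 3 and DTx replicate 2, 0.736 for untreated replicate 3 and DTx replicate 3, and 0.752 for the 2 DTx libraries. The correlation between the untreated library and a DTx library was thus close to that between DTx libraries. These are correlations across regions that share base composition and the caller, not across replicates, and are given with no test. The rule required a call in each of these lists, so the correlations do not compare the treatment groups. The percentile was highest in DTx replicate 3 for 1760 members (47.9%), in DTx replicate 2 for 1152 (31.3%) and in untreated replicate 3 for 765 (20.8%). Percentiles depend on the length and mode of each list, so these counts do not compare the treatment groups. Regions in all 6 lists also had their highest median, 73.8, in DTx replicate 3.

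**Figure D3:**
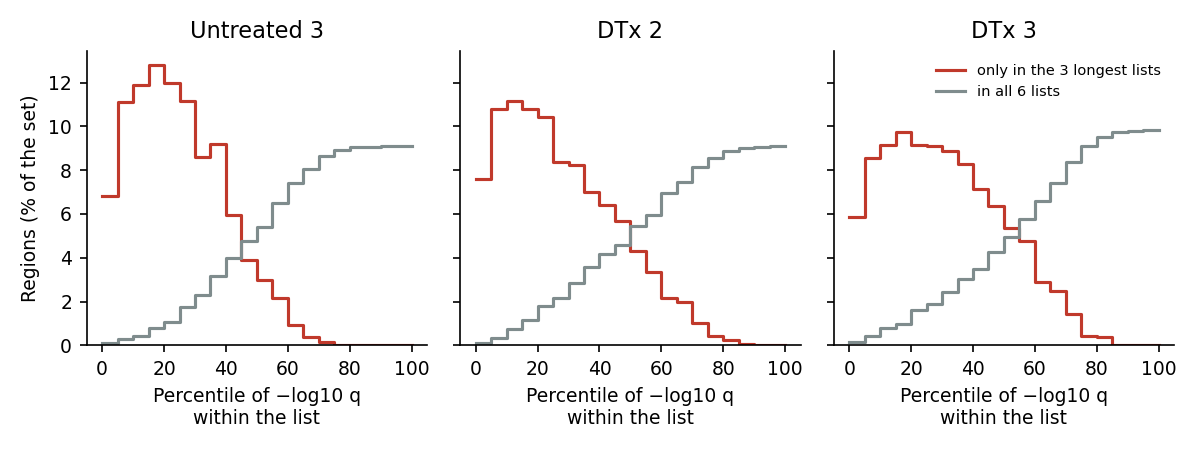
Distribution of regions (vertical axis, % of the set) over the percentile of −log10 q within the list (horizontal axis) in each of the 3 holding lists, for member regions and for regions in all 6 lists. Member regions gather at medians of 22.7, 24.5 and 29.1, and regions in all 6 lists at 72.3, 71.7 and 73.8.

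A smaller number of members were strong. Taking the lowest of a member's 3 percentiles, the median was 17.4, 179 members (4.87%) were above 50 and the highest reached 75.5. When each holding list was cut to its 36760 strongest peaks, the length of the shortest list, 639 members (17.4%) were still called in all 3, while the other libraries had no deposited peak there at all. These had a median width of 346 bp and a gene-end share of 12.8%, and their median distance to the nearest region in all 6 lists was 6.34 kb. With members ordered by their lowest percentile and cut at the quartiles, that distance was 11.4 kb in the weakest class, then 10.2 and 9.34, and 6.81 kb in the strongest. The median width was 441, 387, 365 and 353 bp in the same order. The stronger members were thus narrower and nearer to shared open chromatin. The gene-end share showed no such order: it was 13.0% in the weakest class, then 7.68% and 8.17%, and 11.8% in the strongest.

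The 12 strongest members lay by genes of varied function. The strongest of all was 1.12 kb from an end of Necap2, which encodes a protein of clathrin-coated vesicles, at chr4:141065213-141065396, with percentiles of 75.5, 82.7 and 84.2 in untreated replicate 3, DTx replicate 2 and DTx replicate 3. It stood in the upper part of all 3 lists and under no peak in the other 3. A member in the body of Itga5, the α chain of the fibronectin receptor, at chr15:103347196-103347492 had percentiles of 71.9, 82.8 and 84.6 with fold enrichments of 14.4, 9.44 and 9.47. The Kdelr2 member, 1.92 kb from this gene of the endoplasmic reticulum retrieval receptor, at chr5:143423827-143424309 had the highest fold enrichment of any member in untreated replicate 3, 22.1, and 7.41 and 8.27 in the DTx libraries. The other 9 lay at or nearest to Dnajb2 (a co-chaperone), Tia1 and Ddx6 (regulators of messenger RNA), Tnfrsf12a, H2ac10 (a histone H2A gene), Rab43 (a small GTPase), Cerk (ceramide kinase), Cacna1e (a calcium channel subunit) and Tada2b (an adaptor of the SAGA complex). Of the 12, 5 were in gene bodies, 5 between genes and 2 at gene ends, those of Tnfrsf12a and H2ac10.

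Strong significance did not always go with strong enrichment. All 12 had a pileup above the median of each holding list, but the fold enrichment was below the list median in 8 of them in untreated replicate 3, in 7 in DTx replicate 2 and in 6 in DTx replicate 3. The Necap2 member, for example, had fold enrichments of 6.90, 4.55 and 4.74, of which the first 2 were below the list medians. At the other end, members in Cmah (CMP-sialic acid hydroxylase), 4.65 kb from Stmnd1 and in Vcl (vinculin) each had a −log10 q of 1.00 in DTx replicate 2, at the lower limit of that list, and 6.13, 3.97 and 3.31 in untreated replicate 3. The Vcl member was at percentiles of 2.84, 0.281 and 0.216, the lowest part of every holding list.

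At gene ends, member regions touched 408 of 21887 protein-coding genes (1.86%). For 219 of these (1.00% of all genes) the other 3 libraries had no peak within 1 kb of either end. Another 154 genes had gene-end peaks in every library, so that the member lay beside open chromatin seen throughout. Among the first kind the strongest was the Tnfrsf12a member, at chr17:23677115-23677629, with percentiles of 69.9, 77.6 and 82.3. It covered the start site whose window is printed with the sequences, and its fold enrichment was 5.21, 3.51 and 3.76. The next were at Trim69 (a tripartite-motif protein; lowest percentile 62.3), Tgfbr3l (a protein related to the betaglycan co-receptor; 61.4), Fut7 (a fucosyltransferase of leukocytes; 58.8), Plec (plectin, a cytoskeletal linker; 57.3) and Dnal1 (56.3).

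Fam89b, Zcchc14, Wwc1 and Tnip1 completed the 10 strongest of these genes, with lowest percentiles of 54.0, 53.2, 51.7 and 50.8. The Tnip1 member, at chr11:54962766-54963523, was at percentiles of 58.6, 50.8 and 59.7, with fold enrichments of 9.57, 4.46 and 4.50. It covered the printed start site, and the nearest region called in all 6 lists was 6.35 kb away. Percentiles of these 10 members lay between 51.7 and 69.9 in the untreated holding list and between 50.8 and 82.3 in the DTx holding lists. The members were picked on these same percentiles, so the ranges do not compare the treatment groups.

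Inside genes, 1846 protein-coding genes (8.43%) were overlapped by a member region, 300 by at least 2 and 3 by at least 5. These genes were long, with a median of 56.7 kb against 15.5 kb for the genes without one. The share of genes with a member was 1.84% for genes under 10 kb, 6.89% from 10 to 30 kb, 13.4% from 30 to 100 kb, 24.3% from 100 to 300 kb and 22.1% over 300 kb. The number of members per megabase of gene ran the other way, from 4.58 in the shortest genes to 0.665 in the longest, as did that of regions in all 6 lists, from 96.5 to 5.07. Open chromatin called everywhere was present in most genes with a member: 81.9% also held a region in all 6 lists, against 57.6% of all genes. That comparison was not matched for gene length, and genes with a member were longer.

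Gse1, which encodes a coiled-coil protein, held 6 member regions among 44 regions, 20 of them in all 6 lists. Cux1, a homeobox transcription factor gene, held 5 of 30, and Arhgap24, a GTPase-activating protein gene, 5 of 20. Of these 3 genes Arhgap24 was the one with a member at a gene end, where the other 3 libraries had no peak. Its strongest member had percentiles of 38.8, 45.3 and 33.4, below the median of every holding list but above most members. Mrvi1, Cmah, Tcf20, Sh3pxd2a, Ripor2, Sipa1l1 and Baz2b held 4 each. For Mrvi1, an inositol-trisphosphate-receptor-associated protein gene, these were 4 of only 9 regions in the gene. For Tcf20, a transcriptional co-regulator gene, they were 4 of 16, with 3 regions in all 6 lists.

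Members were otherwise scattered. The next member was a median of 81.3 kb away, and 315 (8.57%) had one within 10 kb. The densest run on the genome held 7 members among 21 regions over 162 kb at chr5:130001469-130163966, where 9 regions were in all 6 lists. It spans Gusb (β-glucuronidase), Asl (argininosuccinate lyase), Crcp (a subunit of RNA polymerase III), Tpst1 (a tyrosine sulfotransferase) and Kctd7. In it 3 of the 7 lay in Crcp, and the strongest of these had percentiles of 44.3, 63.2 and 49.3. The weakest member of the run, in Tpst1, reached only 7.35 in DTx replicate 2.

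Of the regions that overlap a protein-coding gene, 2154 of 42783 (5.03%) were members, and the shares in the 18 gene lists ran from 0 to 8.70%. The B-lineage identity list had 16 of 212 regions (7.55%) in 9 of 18 genes. Ikzf1, which encodes IKAROS, held 3 of its 16 regions, Bach2, a repressor of plasma-cell differentiation, 3 of 41, and Ikzf3, Foxo1 and Cd22 held 2 each. Pax5, Blk, Tcf3 and Ptprc held 1 each. Cd79a and Cd22 each had a member at a gene end and also had gene-end peaks in 6 of 6 libraries. So did all of the genes named here except Ikzf1, which had one in 5.

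In Ikzf1 the strongest member, at chr11:11768068-11768344, was at percentiles of 57.0, 61.5 and 67.0. The others were at 43.9, 47.8 and 39.3 and at 9.04, 23.1 and 19.4, so members of 1 gene spanned much of the range. The member beyond the end of Cd79a, which encodes the Igα chain of the B-cell receptor complex, was at 38.4, 54.1 and 56.0, and the nearest region in all 6 lists was 1.74 kb away. The member in Pax5, which encodes the B-lineage commitment factor, was at 21.9, 57.6 and 46.2. Its fold enrichment was 2.09, 2.40 and 1.99, below the median of each list. Fold enrichments of the 3 Bach2 members lay between 3.10 and 4.48.

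Among genes of later B-cell steps and signalling the counts were smaller. The list of immature and transitional B-cell genes had 3 of 71 regions, and the Vpreb3 member, over the printed start site, was at percentiles of 40.6, 55.5 and 51.1. The follicular and marginal-zone list had 3 of 71, with gene-end members at, among others, Cd55, which encodes a complement regulator, and Cxcr5, the gene of the follicle-homing receptor. Cd55 had no gene-end peak in the other 3 libraries. The member by Cxcr5 lay inside another gene, Bcl9l, 860 bp from the end of Cxcr5. The B-cell receptor signalling list had 8 of 222 (3.60%), 3 of them in Prkcb, the gene of protein kinase C-β, and others in Lyn, Pik3ap1, Rasgrp3 and Vav3 (1 each). The germinal-centre and plasma-cell list had 2 of 45, both in Prdm1, which encodes BLIMP1, and the antigen-presentation list 2 of 72, both in Ciita, the activator of MHC class II genes. In Prdm1 1 member was at 46.4, 46.1 and 53.3 and the other at 13.7, 4.58 and 10.5.

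The NF-κB response list had 5 of 71 regions (7.04%), in Nfkb1, Relb, Traf1, Nfkbie and Tnip1, and a gene-end member by Icam1 besides. The member by Icam1 lay inside another gene, Icam4. The Relb member, in the gene of a subunit of the non-canonical pathway, was at percentiles of 58.9, 57.6 and 56.9, nearly the same in each list. The interferon list had 2 of 42. Oas1a, with no gene-end peak in the other 3 libraries, was at 9.80, 10.6 and 21.6, and the nearest region in all 6 lists was 94.1 kb away. Rsad2, the gene of viperin, was at 56.6, 35.2 and 54.5. The cytokine receptor list had 3 of 74 (Il10ra, Tgfbr1 and Tgfbr2) and the housekeeping list 0 of 21.

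Lists of other cell types held between 0 and 3 members each, and their shares lay on both sides of the 5.03% over all genes. The myeloid list had the highest share of the 18, 2 of 23 regions (8.70%, Itgam and Fcgr1), and the stromal and endothelial list had 2 of 28 (7.14%, Kdr and Pdgfrb). The γδ T-cell list had 1 of 19 (5.26%, Rora). There were 2 of 57 regions (3.51%) for T cells (Cd5 and Tcf7), 3 of 70 (4.29%) for dendritic cells (Batf3, Irf8 and Tcf4), 2 of 102 (1.96%) for long neuronal genes (Dlg2 among them), 0 of 10 for natural killer and innate lymphoid cells and 0 of 20 for erythroid cells and megakaryocytes. Tcf7, which encodes TCF1, was at percentiles of 41.0, 44.7 and 42.9, whereas Itgam, the gene of CD11b, was at 9.80, 0.560 and 0.216. Irf8 and Tcf4 also act in B cells. Differences between lists were not tested.

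**Figure D4:**
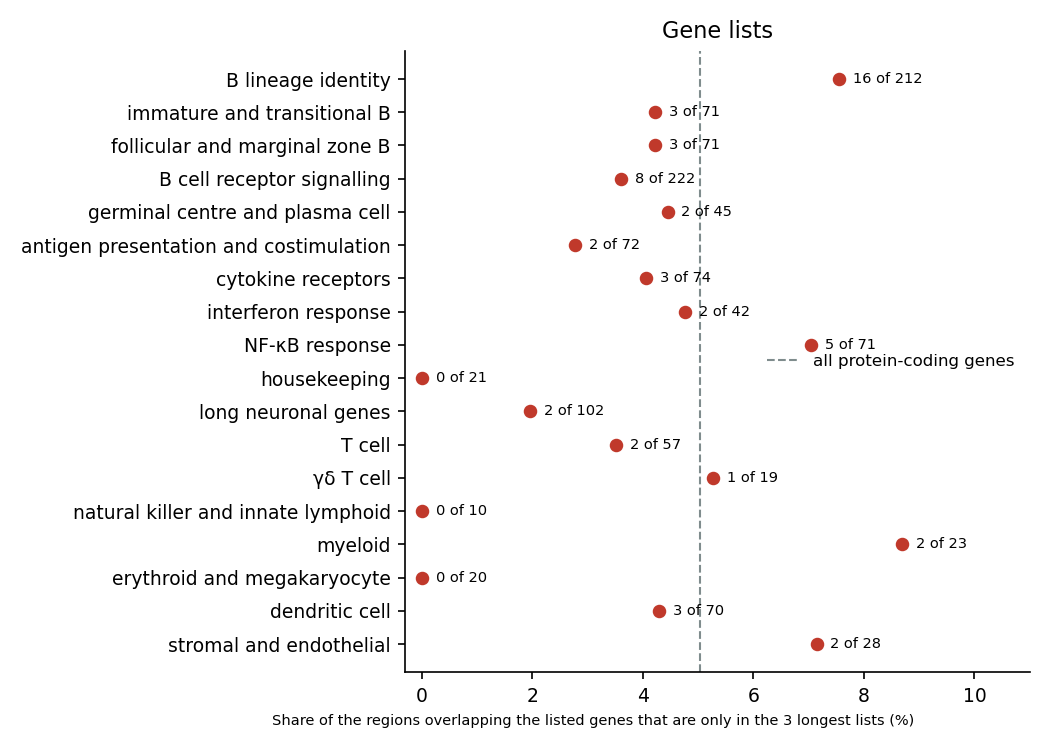
Share of the regions overlapping the genes of each list (vertical axis) that are member regions (horizontal axis, %), with counts beside each point and the share over all protein-coding genes, 5.03%, as a dashed line. The myeloid (2 of 23), B-lineage identity (16 of 212), stromal and endothelial (2 of 28), NF-κB response (5 of 71) and γδ T-cell (1 of 19) lists lie to its right and the others to its left.

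At start sites, 172 members (4.68%) overlapped 200 of 32851 promoter windows (0.609%), of 184 genes; chromosome 18 was not in the promoter table. These windows had a median GC content of 59.2%, against 59.8% for windows under a region of another set of 3. It was 52.7% over all windows, 61.7% for windows under a region in all 6 lists and 48.0% for windows under no region. The ratio of observed to expected CpG, which is high in the CpG islands of broadly active genes, was over 0.6 in 44.5% of the member windows. Under regions of another set of 3 this share was 41.4%, close to that of the members. Over all windows it was 35.8%, under regions in all 6 lists 76.0% and under no region 9.70%. The printed windows show this spread, with a ratio of 0.782 for Tnfrsf12a and 0.519 for Dnal1 against 0.130 for Tnip1, 0.154 for Vpreb3 and 0.188 for Oas1a.

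Motif letters were searched on both strands of the same windows, and motifs could overlap. The ETS-type motif CCGGAAG was in 6.5% of member windows, 8.86% of all windows and 19.5% of those under regions in all 6 lists. The GC box GGGCGG was in 48.0%, 35.7% and 66.2% in the same order, the E-box CAGCTG in 19.5%, 16.3% and 14.4%, and the octamer ATGCAAAT, a motif of immunoglobulin and other B-cell promoters, in 3.5% (7 windows), 1.74% and 1.47%. The AP-1 motif TGACTCA was in 4.5%, 5.20% and 2.97%, CCAAT in 30%, 37.4% and 38.4%, TATAAA in 6.0%, 13.6% and 6.30%, and TGACGTCA in none of the 200, in 1.79% and in 3.49%. Among 140 windows under regions of another set of 3, CCGGAAG was in 5.0%, the GC box in 52.1% and the E-box in 18.6%. In those windows the octamer was in 0.714%, TGACTCA in 7.86%, CCAAT in 32.9%, TATAAA in 11.4% and TGACGTCA in 2.86%. In the Vpreb3 window the octamer begins 45 bases before the start on the opposite strand, and in Tnfrsf12a CCGGAAG begins 61 bases before it, both within the capitals. These are matches of letters and say nothing of whether a factor was bound.

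The surroundings of the member regions were not used by the rule and can be compared between treatment groups. The nearest other region in all 6 lists lay at a median of 9.42 kb from a member, against 10.8 kb over all regions, 9.90 kb for regions in all 6 lists and 13.6 kb for another set of 3. It was within 1 kb for 200 members (5.44%), against 4.21% of all regions, and beyond 50 kb for 327 (8.89%), against 12.7%. The members were thus near the values over all regions. For the 3350 members (91.1%) with such a neighbour within 50 kb, the median percentile of that neighbour, among regions in all 6 lists ranked within the library, was 50.1, 52.3 and 53.4 in untreated replicates 1, 2 and 3 and 50.8, 52.3 and 53.2 in DTx replicates 1, 2 and 3. The groups overlapped, and the shared neighbours of members ranked near the middle in every library. The means were 51.9 ± 1.69 and 52.1 ± 1.21 (SD, n = 3), a difference of 0.178 for DTx minus untreated with p = 1 by an exact two-sided permutation test over 20 relabellings, whose smallest p is 0.1. It was 1.55 among broad-mode lists and −2.56 between the narrow-mode lists, and it turned negative without untreated replicate 1 (−0.750) or without DTx replicate 3 (−0.374).

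The number of other peaks within 50 kb of a member, counted in lists cut to equal length, was 3.99, 4.37 and 4.32 in the untreated libraries and 4.09, 4.17 and 4.32 in the DTx libraries. Again the groups overlapped. The means were 4.23 ± 0.208 and 4.20 ± 0.117 (SD, n = 3), a difference of −0.0335 with p = 0.9 by the same exact permutation test (adjusted p = 1 for both comparisons over this family of 2). The difference was 0.0653 in broad mode and −0.231 in narrow mode. In the lists as deposited it was 0.695 peaks (p = 0.5, exact permutation), and it was 0.0391 without untreated replicate 2, 0.0130 without untreated replicate 3 and 0.0189 without DTx replicate 1. Neither measure therefore separated the treatment groups, and with 3 libraries against 3 neither could have reached 0.05.

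**Figure D5:**
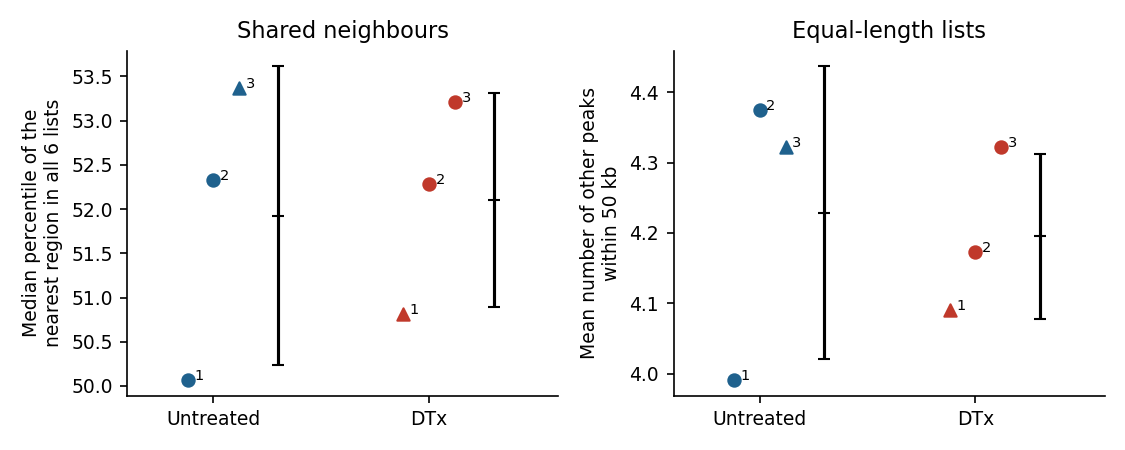
Median percentile of the nearest region in all 6 lists (left) and mean number of other peaks within 50 kb of a member in equal-length lists (right) for each library, numbered by replicate, with circles for broad-mode and triangles for narrow-mode lists and bars for the mean ± SD (n = 3); the vertical axes do not start at 0. Untreated and DTx libraries overlap in both panels.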

How the data were processed

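For the 6 ATAC-seq libraries the submitters' processing notes name Trim Galore 0.4.3, Bowtie2 2.3.2 and MACS2 2.1.1 with the mm10 build. Tn5 shifting and duplicate removal were not stated in any source used here, nor were read totals. The authors deposited 1 peak list per library, called separately. Per the file headers, each peak has a pileup (a coverage signal) and a fold enrichment, a ratio to the background. The deposited −log10 p and −log10 q columns have damaged headers, so MACS2's column order and the values identified them. These per-peak values are the authors' and served only to rank or describe peaks within a list.

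Peaks on chromosomes 1 to 19, X and Y were merged where they overlapped, leaving out 2 mitochondrial peaks per list. No filter on low values was applied, and all 3677 regions enter each description. Genes came from the RefSeq GRCm38.p6 table, the same build, with 21887 protein-coding genes. It holds no exons, so exons and introns were not told apart. Start sites and strands came from its promoter windows. Of 292 listed gene symbols 288 matched. Mx1, Mx2, Trdc and Tcrg-C1 did not match as protein-coding genes. Some listed genes are not reported here by name. The members, lists and tests were chosen with earlier results of these data known.

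Named genes are those of the 12 members with the highest lowest percentile, the 10 genes holding most members, listed genes with a member, the 10 strongest genes with a member at an end and no gene-end peak in the other 3 libraries, the densest run within 200 kb, and the lowest, widest and narrowest members. Libraries were compared by exact permutation, checked on fixed numbers with a known answer. Merging, membership, distances and overlaps were checked on simulated data. Python 3.11.15, NumPy 2.4.6, pandas 2.3.3, SciPy 1.17.1 and Matplotlib 3.10.9 were used. Alternatives covered peak thresholds, merging, overlap, list length, gene-end distance, ranking, windows, pairing and leaving out each list.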

Additional observations from a re-analysis of the deposited data

How the results depend on the processing

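The number of member regions and their description have no test. With peaks of −log10 q of at least 5 there were 2416 members, of which 11.3% were at gene ends, with a median lowest percentile of 33.1. In equal-length lists there were 682, with 13.0% at gene ends, a median width of 352 bp and a percentile of 43.5. With equal-length peaks in the holding lists and no deposited peak in the others, an alternative chosen after seeing the data, these were 639, 12.8%, 346 bp and 44.0. Requiring peaks to cover at least 50% of a region gave 12.3% at gene ends, a width of 448 bp and a percentile of 24.3. A −log10 q of at least 2 in the holding lists gave 9.20% at gene ends and a percentile of 21.6. The gene-end share was 7.40% within 500 bp and 28.1% within 5 kb, where 1266 genes had an end by a member. Leaving out each list in turn gave 4330 to 6442 members, gene-end shares of 8.20% to 11.5%, widths of 304 to 427 bp and percentiles of 15.6 to 20.1.

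Leaving out each library gave differences (DTx minus untreated) of −0.750 to 0.902 in the rank of the nearest shared region and −0.152 to 0.0391 in the peaks near members, with exact permutation p of 0.4 to 1 and 0.3 to 1. The deposited lists turned the second difference to 0.695. With the replicate block the differences stayed at 0.178 and −0.0335 (exact sign-flip p = 1 for both, smallest possible 0.25). Deviations of same-numbered libraries from their group means correlated at 0.129, 0.0406 and −0.0606 over 30954 regions. Not every library correlated best with its own number. Deviations within so small a group constrain one another, so whether the numbers pair the libraries cannot be settled. Depth is unknown, and an absent peak in a short list does not show closed chromatin.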
